A study of Homo sapiens with 18 samples.

Results

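HL-60 is a human promyelocytic acute myeloid leukaemia line, and NTX-301 belongs, like decitabine, to the nucleoside analogues that inhibit DNA methylation. The comparison set 3 HL-60 samples exposed to NTX-301 against 3 exposed to the solvent dimethyl sulfoxide (DMSO), 6 of the 18 samples in the series, and it covered every gene listed for the line, 17110 in all, of which 17046 were tested. All HL-60 samples were grown in 6-well plates and harvested on day 2, after 48 h. The labels state 30 nM of drug for HL-60, in wording that leaves unclear whether the figure holds for NTX-301 as well as for decitabine. Another HL-60 group of 3 samples received decitabine and is used here as a side comparison. RNA was sequenced from stranded total RNA libraries. No label says that replicates were separate cultures, so p-values measure only the spread between these samples, which may be technical.

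Analogues of this class are built into DNA as it replicates and bind DNA methyltransferases covalently, which leads to loss of the enzyme. Methylation is then diluted as cells divide, and genes whose promoters had been methylated can be transcribed. HL-60 cells are halted as precursors of granulocytes: they fill primary granules with proteases and peroxidase, divide fast, and lack functional p53.

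Each value is the log2 normalized expression of 1 gene in 1 sample, so a difference of 1 is a doubling. The scale pulls genes with low values towards their own mean, and fold changes are compressed, most for low genes. Sample medians lay between 9.53 and 9.56 in DMSO and between 9.57 and 9.58 with NTX-301, and the median SD of a gene over replicates was 0.0315 and 0.0274. Of 8 markers of promyelocytic identity (MPO, ELANE, PRTN3, AZU1, CTSG, CD33, MYB and CSF3R), all 8 were listed, with DMSO means from 11.7 to 18.7. Differences were tested with limma over all genes. A gene is called when its adjusted p-value is under 0.05.

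NTX-301 changed 6380 of 17046 genes (37.4%), with 3115 higher (18.3%) and 3265 lower (19.2%). Most changes were small: 765 genes rose and 485 fell by at least 0.25 on the log2 scale, 176 and 32 by at least 0.5, and 21 and 3 by at least 1. The 3 and 3 samples did not overlap for 8050 genes (47.2%), among them 6222 of the 6380 called. The balance of directions rests on the scaling. Centring each sample on its own median gave 2310 higher and 5400 lower, and quantile normalization gave 2936 and 3257, against a median over all genes of 0.00 as deposited, -0.03 when centred and 0.00 after quantile normalization.

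The direction of change went with expression level. Among protein-coding genes with a mean log2 value of 5 to 7, 33.3% rose and 3.68% fell. Between 9 and 11 the shares were 22.9% and 22.5%, and among genes at 13 and over 17.1% rose and 42.3% fell. Quantile normalization, which gives every sample the same distribution of values, reduced this: genes at 13 and over then split into 402 higher and 463 lower, where the deposited values gave 254 and 628, and genes at 5 to 7 into 222 and 87, where they had been 362 and 40. Centring gave 267 and 75 at 5 to 7 and 187 and 787 at 13 and over.

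**Figure D1:**
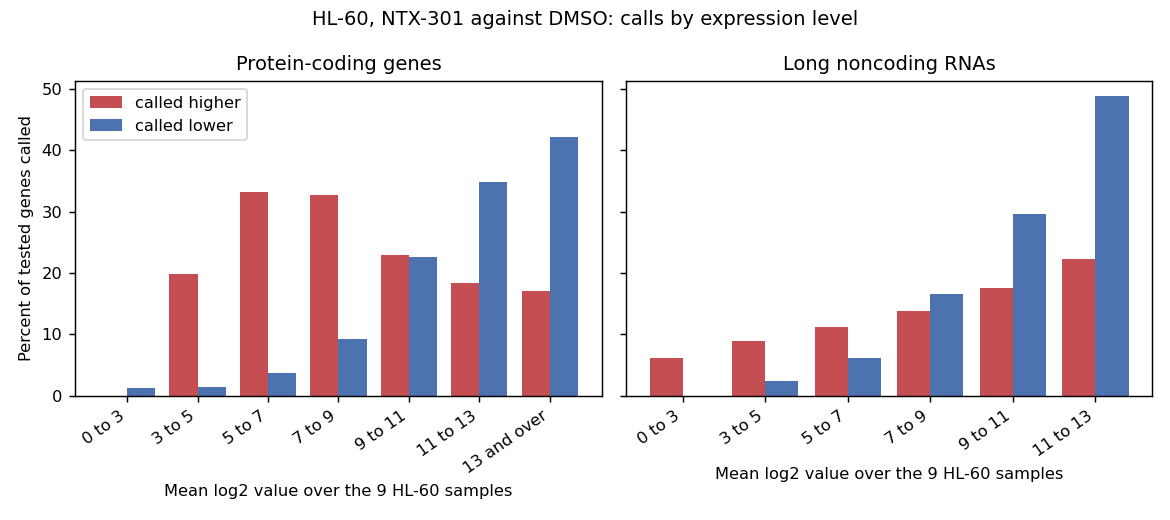
Percent of tested genes called higher (red) or lower (blue) with NTX-301 in HL-60, on the vertical axis, by mean log2 value over the 9 HL-60 samples, for protein-coding genes (left) and long noncoding RNAs (right). Rises outnumbered falls among protein-coding genes at 5 to 9 and falls outnumbered rises from 11 up; under quantile normalization the falls at 13 and over shrank to 463 against 402 rises.

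The genes that rose most encoded transcription factors, surface receptors, secreted proteins and an eosinophil enzyme. EPX (NCBI Gene 8288), eosinophil peroxidase, had log2 values of 8.49, 8.52 and 8.55 in DMSO and 10.53, 10.50 and 10.61 with NTX-301, a rise of 2.03 (SE 0.034, adjusted p = 3.53e-14). Every NTX-301 sample lay far above every DMSO sample. RHEX (NCBI Gene 440712), a regulator of erythropoietin signalling in erythroid precursors, read 9.66, 9.68 and 9.56 against 11.64, 11.64 and 11.69, a rise of 2.03. KCNH2 (NCBI Gene 3757), a voltage-gated potassium channel, moved from 7.85, 7.97 and 7.90 to 9.55, 9.57 and 9.50, a rise of 1.64 (adjusted p = 1.04e-11). For both genes the groups were well separated.

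A pair of haematopoietic transcription factors stood among the top 12. IKZF2 (NCBI Gene 22807), the Ikaros-family factor Helios, read 11.20, 11.17 and 11.19 in DMSO and 12.67, 12.66 and 12.61 with NTX-301 (rise 1.46, SE 0.024, adjusted p = 3.53e-14). GATA2 (NCBI Gene 2624), which maintains stem and progenitor cells and directs mast cell fate, read 10.93, 10.97 and 11.02 against 12.29, 12.32 and 12.30 (rise 1.33, SE 0.030, adjusted p = 1.18e-12). Both genes were well expressed in DMSO, and neither showed overlap. The gelatinase MMP2 read 9.15, 9.23 and 9.13 against 10.54, 10.52 and 10.55, a rise of 1.37.

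The other 6 of the top 12 were the giant scaffold protein AHNAK (1.36), the sialic acid receptor SIGLEC6 (1.22), galectin-1 LGALS1 (1.21), the interleukin-9 receptor IL9R (1.21), the activin antagonist FST (1.18) and the complement receptor CR1 (1.17). Their groups did not overlap. The comparison with decitabine uses the same 3 NTX-301 samples, and the top 12 did not move as a block in it. MMP2 was 1.25 higher with NTX-301 than with decitabine, AHNAK 0.92, SIGLEC6 0.77 and RHEX 0.77. For IKZF2 the difference from decitabine was 0.00 and for CR1 it was -0.01, neither called, and EPX was lower with NTX-301, at -0.67.

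The genes that fell most were led by immediate-early transcription factors, inflammatory genes and a granule protease. FOSB (NCBI Gene 2354), an AP-1 subunit, read 9.65, 9.39 and 9.44 in DMSO and 8.42, 8.59 and 8.43 with NTX-301, and fell by 1.01 (adjusted p = 8.40e-08). CXCL8 (NCBI Gene 3576), the neutrophil chemoattractant interleukin-8, read 14.37, 14.26 and 14.27 against 13.30, 13.35 and 13.24, and fell by 1.0 (adjusted p = 1.12e-10). EGR1 (NCBI Gene 1958), a zinc finger factor of the same early response, read 11.15, 11.13 and 11.16 against 10.18, 10.24 and 10.09, and fell by 0.97. In all 3 genes the lowest DMSO sample lay above the highest NTX-301 sample.

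PRTN3 (NCBI Gene 5657), proteinase 3 of the primary granules, read 16.03, 16.03 and 16.16 in DMSO and 15.28, 15.31 and 15.33 with NTX-301, and fell by 0.76. HERPUD1 (NCBI Gene 9709), a component of endoplasmic reticulum-associated degradation, read 13.36, 13.39 and 13.40 against 12.73, 12.78 and 12.78, and fell by 0.62 (adjusted p = 1.12e-10). Both were high genes in which the groups were clearly apart. The rest of the lowest 12 were FOS (-0.94), the IgA receptor FCAR (-0.93), the glycosyltransferase B3GNT7 (-0.66), the NF-kB inhibitor NFKBIA (-0.65), the nuclear receptor NR4A2 (-0.63), the growth factor NRG4 (-0.63) and the lysosomal trafficking regulator LYST (-0.62).

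**Figure D2:**
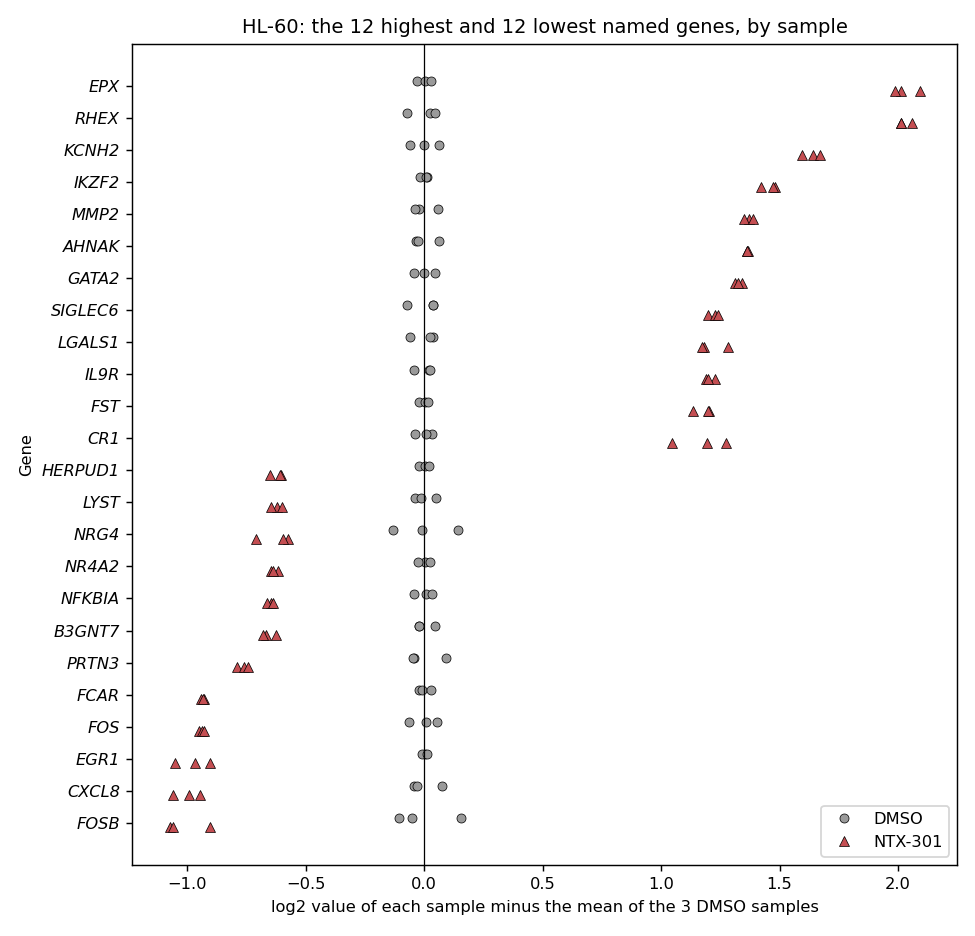
Log2 value of each sample minus the mean of the 3 DMSO samples (horizontal axis) for the 12 genes that rose most and the 12 that fell most; grey circles are the 3 DMSO samples and red triangles the 3 NTX-301 samples. In none of the 24 genes do circles and triangles overlap, and the widest spread among DMSO samples is that of FOSB and NRG4.

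Among the enzymes of DNA methylation and of nucleoside handling, calls went both ways. DNMT1, the maintenance methyltransferase that the drug class traps, rose by 0.06 (adjusted p = 0.0332), a call lost in 7 of 16 alternative settings, centring included. DNMT3B, a de novo methyltransferase, read 8.42, 8.50 and 8.48 in DMSO and 9.03, 9.07 and 8.99 with NTX-301 (rise 0.56, adjusted p = 4.26e-07). DNMT3A (-0.05), the activating kinase DCK (-0.04) and the triphosphohydrolase SAMHD1 (-0.11) did not pass the test. UHRF1, which brings DNMT1 to replicating DNA, fell by 0.08 (adjusted p = 0.0191), a call lost in 5 of 16 settings. Of 25 DNA methylation genes tested, 8 rose and 7 fell (6 and 8 after centring, 10 and 3 after quantile normalization). CXXC5, a reader of unmethylated CpG, rose by 0.40, and the demethylating dioxygenase TET3 fell by 0.26. Of 29 genes that handle cytidine analogues 5 rose and 8 fell (6 and 5 after quantile normalization; 5 fell without DMSO replicate 2 or NTX-301 replicate 1).

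Promoter sequence was set beside the calls, since DNA methylation acts at CpG dinucleotides. A RefSeq promoter (GRCh38.p14; 250 bases before and 50 after the first listed start) was found for 9745 of 11799 protein-coding genes (82.6%). Of these, 1688 were CpG-poor, with an observed-to-expected CpG ratio under 0.6. CpG-poor genes rose in 29.8% and fell in 16.9%, while the other promoters gave 20.4% and 26.6%. After centring, rises no longer outnumbered falls among CpG-poor genes, with 409 and 416 of 1688 in place of 503 and 286. The other promoters then gave 1255 and 2893 of 8057, so the difference between the classes remained. Quantile normalization gave 439 and 284 for CpG-poor genes and 1748 and 1853 for the others. Of the 122 genes that rose by at least 0.5, 60 (49.2%) had a CpG-poor promoter, and of the 19 that fell by at least 0.5, 4 (21.1%) did. The share over all 9745 was 17.3%. The 19 had a median DMSO level of 11.4, and 10.4% of all genes at 11 and over had a CpG-poor promoter, so both sets lay above their reference. The 19 were not split by level.

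CpG-poor promoters are commoner among low genes, so shares were also read within level classes. At a mean log2 value of 7 to 9, 27 of 53 genes that rose by 0.5 or more (50.9%) had a CpG-poor promoter, where 26.4% of all genes in the class did. At 9 to 11 these were 16 of 36 (44.4%) and 14.7%, and at 11 and over 14 of 27 (51.9%) and 10.4%. Under 7 they were 3 of 6 (50.0%) and 39.9%. These shares are descriptions across genes of the same 6 samples, and promoter methylation was not measured.

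RHEX and EGR1 are shown as examples, a gene that rose with a CpG-poor promoter and a gene that fell with a CpG-rich one: the 300 bases around the start hold 6 CpG in RHEX and 33 in EGR1. Each line gives the 200 bases before the start, 5′ to 3′ on the gene's strand, with every CpG in capitals: 4 in RHEX (chr1:206083395-206083594, plus strand) and 20 in EGR1 (chr5:138465279-138465478, plus strand).
RHEX: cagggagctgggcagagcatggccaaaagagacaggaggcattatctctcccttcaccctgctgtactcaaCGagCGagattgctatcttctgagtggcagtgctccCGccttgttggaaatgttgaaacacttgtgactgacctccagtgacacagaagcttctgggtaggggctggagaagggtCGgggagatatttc
EGR1: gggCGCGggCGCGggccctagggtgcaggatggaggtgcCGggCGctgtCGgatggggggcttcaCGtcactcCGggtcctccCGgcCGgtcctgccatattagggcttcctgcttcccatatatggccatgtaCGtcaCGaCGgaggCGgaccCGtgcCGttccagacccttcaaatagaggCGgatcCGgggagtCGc

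**Figure D3:**
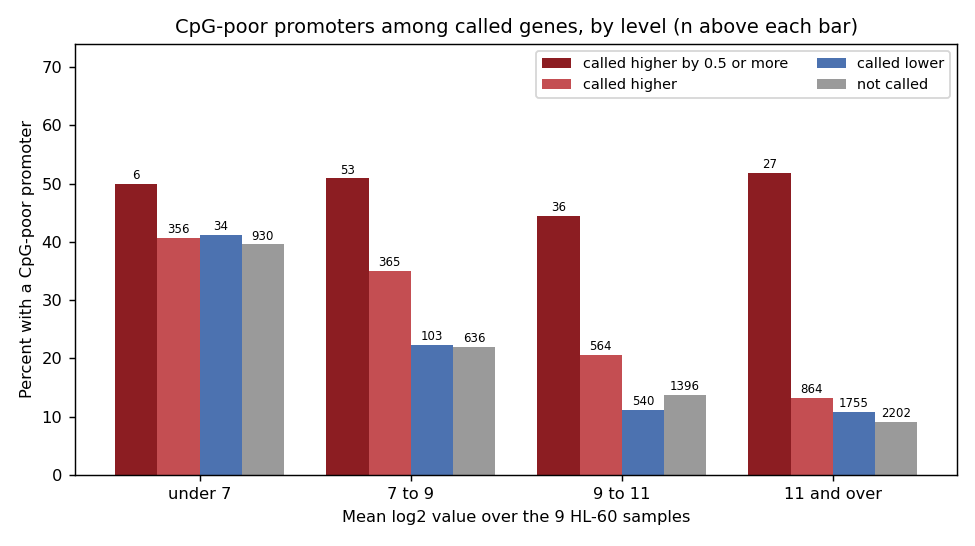
Percent of protein-coding genes with a CpG-poor promoter (vertical axis) by mean log2 value over the 9 HL-60 samples, for genes called higher by 0.5 or more (dark red, a subset of the next), called higher (red), called lower (blue) and not called (grey); the number above each bar is its count of genes. The dark red bars stand between 44.4% and 51.9% in every class, while the share over all genes falls from 39.9% under 7 to 10.4% at 11 and over.

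Genes of the dividing cell rose together, by small amounts. Of 56 G2 and mitosis genes tested, 48 rose and 0 fell (limma; 50 and 1 at an unadjusted p under 0.05), with a median of 0.17, against 18.3% and 19.2% of all genes. MKI67, the proliferation antigen, read 14.93, 14.87 and 14.91 in DMSO and 15.21, 15.29 and 15.22 with NTX-301 (rise 0.34, adjusted p = 6.56e-08). The condensin subunit NCAPG read 13.04, 13.06 and 12.98 against 13.34, 13.39 and 13.35 (rise 0.33). Neither gene showed overlap, and the list kept at least 43 members called higher in each of the 16 alternative settings. Against decitabine, 37 of the 56 were higher with NTX-301 and 0 lower, where 15.4% of all genes were higher and 15.0% lower.

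Many promoters of this list hold the cell cycle genes homology region, the letters TTTGAA, which was searched on both strands. It was found in 34 of the 50 promoters matched (68.0%) and in 1008 of all 9745 (10.3%). Members with the letters rose in 29 of 34 (median 0.18) and members without them in 15 of 16 (median 0.18). The 110 bases before the start are shown for both genes named above, 5′ to 3′ with TTTGAA in capitals, from chr10:128126424-128126533 (minus strand) for MKI67 and chr4:17810869-17810978 (plus strand) for NCAPG.
MKI67: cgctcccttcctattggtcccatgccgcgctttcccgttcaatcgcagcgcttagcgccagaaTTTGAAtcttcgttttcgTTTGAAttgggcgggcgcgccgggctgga
NCAPG: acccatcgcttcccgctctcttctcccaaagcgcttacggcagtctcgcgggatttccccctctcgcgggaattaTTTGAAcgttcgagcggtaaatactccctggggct

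DNA synthesis and repair genes moved the same way. Of 49 DNA replication genes, 30 rose and 1 fell, with a median of 0.10, and 32 were higher than with decitabine. The nucleotide-making enzymes led: RRM2, of ribonucleotide reductase, read 14.02, 13.99 and 13.96 in DMSO and 14.33, 14.34 and 14.33 with NTX-301 (rise 0.34), and TYMS, thymidylate synthase, rose by 0.38. The member that fell was TIPIN (-0.13), a replication fork protector. Of 41 homologous recombination and Fanconi genes, 23 rose and 3 fell, with FANCI at 0.36, FANCG at 0.35, and the kinase ATR at -0.10.

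Of 69 histone genes, 43 rose and 5 fell, with a median of 0.12. H2AC12 read 13.85, 13.94 and 13.94 in DMSO and 14.14, 14.15 and 14.20 with NTX-301 (rise 0.25), and H2BC15 rose by 0.23. Those that fell included genes that act outside S phase, the replacement histone H3-3B (-0.14) and the linker histone H1-10 (-0.21). Histone genes are near-identical copies, so reads may be split among them in a way the files do not show. Among 31 kinesins, the motors of spindle and transport, 19 rose and 1 fell, led by KIFC3 (0.96) and KIF21B (0.40).

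Genes of the endoplasmic reticulum stress and amino acid responses fell. Of 23 unfolded protein response genes, 0 rose and 19 (82.6%) fell (limma; 0 and 19 at an unadjusted p under 0.05), with a median of -0.14. Their median level in DMSO was 13.8, and among protein-coding genes at 13 and over 42.3% fell and 17.1% rose. HSPA5, the lumenal chaperone BiP, read 16.18, 16.19 and 16.18 in DMSO and 15.85, 15.85 and 15.84 with NTX-301, and fell by 0.33 (adjusted p = 4.06e-09). CANX, the lectin chaperone calnexin, read 17.32, 17.31 and 17.28 against 17.07, 17.07 and 17.09, and fell by 0.23. In both genes the groups were apart by many times the spread. Against decitabine, 20 of the 23 were lower with NTX-301 and 0 higher. Quantile normalization gave 2 higher and 18 lower.

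These promoters are known for the endoplasmic reticulum stress element, CCAAT and CCACG separated by 9 bases, searched on both strands. It was found in 6 of 22 matched promoters (27.3%) and in 14 of all 9745 (0.144%). Of the 6 holders 4 fell (median -0.15), and of the 16 others 14 fell (median -0.14). The element is in capitals, 5′ to 3′ on the gene's strand, in 110 bases from HSPA5 (chr9:125241346-125241455, minus strand) and CANX (chr5:179698732-179698841, plus strand), shown because both genes fell and hold it.
HSPA5: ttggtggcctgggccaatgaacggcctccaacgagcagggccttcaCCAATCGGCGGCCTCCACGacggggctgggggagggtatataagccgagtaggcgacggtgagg
CANX: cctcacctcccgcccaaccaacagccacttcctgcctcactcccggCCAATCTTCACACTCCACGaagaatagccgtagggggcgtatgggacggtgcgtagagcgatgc

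Of 29 serine synthesis and ATF4 target genes, 2 rose and 22 (75.9%) fell, with a median of -0.21, the lowest of the groups plotted. Their median level in DMSO was 12.5, and among protein-coding genes at 11 to 13 34.8% fell and 18.4% rose. The serine enzyme PSAT1 read 13.09, 13.10 and 13.08 in DMSO and 12.78, 12.78 and 12.75 with NTX-301, and fell by 0.32. The transcription factor ATF5 fell by 0.41. DDIT4, an inhibitor of mTORC1, moved the other way and read 8.38, 8.45 and 8.47 against 8.94, 8.92 and 8.97 (rise 0.51), as did PCK2 (0.20). Against decitabine 20 of the 29 were lower and 2 higher.

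Lipid and sugar metabolism fell in part. Of 28 cholesterol synthesis genes, 0 rose and 18 (64.3%) fell (0 and 18 also at an unadjusted p under 0.05), with the sterol sensor INSIG1 at -0.28. Among protein-coding genes at 11 to 13, the class of this list's median level, 34.8% fell. Of 23 fatty acid synthesis genes, 6 rose and 7 fell (5 and 9 after centring), with FASN, fatty acid synthase, at -0.47 and ACSL1 at 0.33. Of 25 glycolysis genes, 14 (56.0%) fell and 5 rose, with a median level of 13.6. Among protein-coding genes at 13 and over 42.3% fell. PFKL (-0.39) and the lactate exporter SLC16A3 (-0.43) fell, while HK3, a myeloid hexokinase, read 9.85, 9.93 and 9.90 in DMSO and 11.03, 11.07 and 11.05 with NTX-301 (rise 1.16), and the glucose transporter SLC2A3 rose by 0.87.

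**Figure D4:**
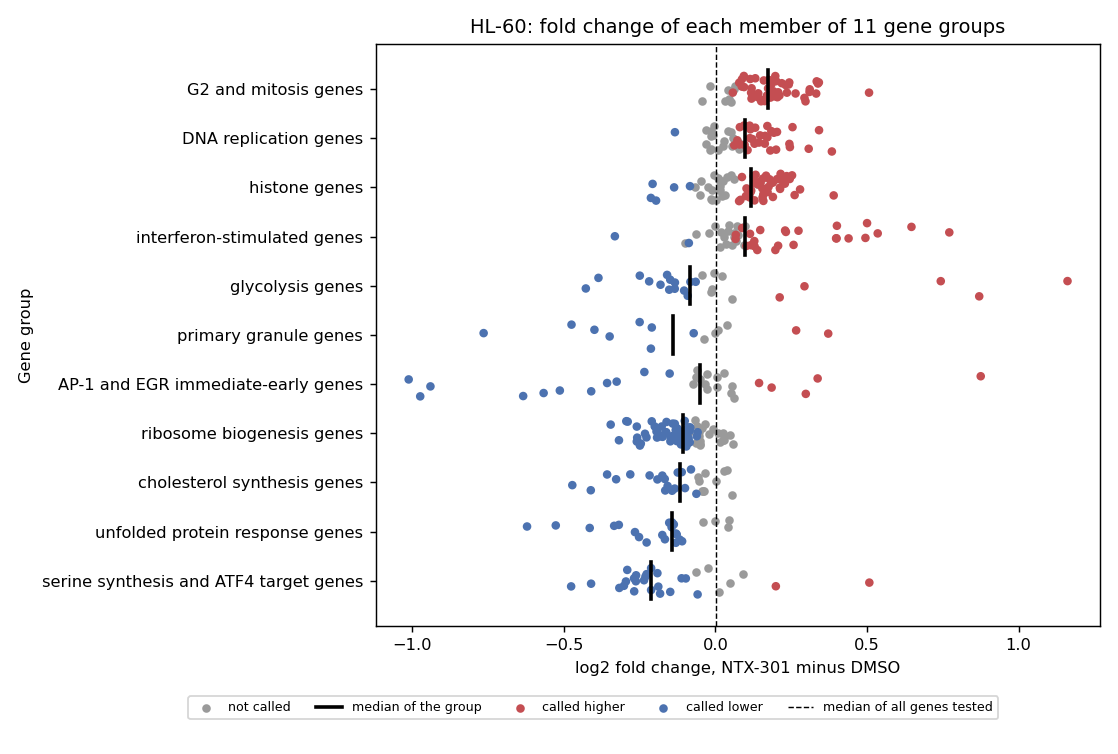
Log2 fold change of NTX-301 minus DMSO (horizontal axis) for every tested member of 11 gene groups; red points were called higher, blue lower and grey not called, the black bar is the group's median and the dashed line the median of all genes. Mitosis genes cluster to the right with a median of 0.17, and ATF4 target genes to the left with a median of -0.21 and DDIT4 as the far point at 0.51.

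Genes of ribosome assembly mostly fell. Of 73 ribosome biogenesis genes, 0 rose and 52 fell (limma; 1 and 60 at an unadjusted p under 0.05), with a median of -0.11. These are high genes, and in the class of protein-coding genes at 11 to 13 18.4% rose and 34.8% fell. The nucleolar helicase DDX21 read 15.52, 15.53 and 15.46 in DMSO and 15.15, 15.15 and 15.17 with NTX-301, and fell by 0.35 (adjusted p = 2.76e-08), and WDR43 fell by 0.26. Against decitabine 23 of the 73 were lower and 5 higher. Of 24 snoRNA host genes, spliced RNAs whose introns carry snoRNAs, 12 (50.0%) fell and 2 rose, with SNHG3 at -0.26 and SNHG1 at -0.22. That share was close to the 48.9% of long noncoding RNAs at 11 to 13, the class of their median level, that fell.

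The precursor and processing RNAs of the ribosome ran the other way, in sets chosen after their values were seen. The 45S pre-ribosomal RNA copy RNA45SN1 read 16.74, 16.85 and 16.61 in DMSO and 17.48, 17.11 and 17.21 with NTX-301, and all 3 copies tested rose, by 0.53 to 0.56. The 5 copies of SNORD3, the U3 snoRNA that guides pre-rRNA cleavage, rose by 0.44 to 0.77. SNORD3A showed a low DMSO replicate 3, with 17.10, 17.13 and 16.59 against 17.52, 17.35 and 17.28. Reads of these near-identical copies cannot be assigned to 1 locus. The RNase MRP RNA RMRP rose by 0.16. The RNase P RNA RPPH1, which is not one of the ribosome's processing RNAs, rose by 0.15.

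Cytosolic ribosomal protein genes were near no change: 2 of 81 rose and 14 fell, with a median of -0.02 that turned to 0.01 under quantile normalization (14 higher, 9 lower; centring gave 0 and 32). Fewer fell without DMSO replicate 2 or NTX-301 replicate 2 (6 each) or without NTX-301 replicate 1 (8). Against decitabine they were set apart, with 49 of 81 higher with NTX-301 and 1 lower. Of 38 aminoacyl-tRNA synthetases 16 (42.1%) fell and 2 (5.26%) rose (20 and 0 after centring), with VARS1 at -0.31 and WARS1 at -0.25. Of 54 initiation factors 24 (44.4%) fell and 2 (3.70%) rose (15 and 6 after quantile normalization), with EIF5 at -0.29 and EIF4G2 at 0.13. Among protein-coding genes at 11 to 13, the class of both medians, 34.8% fell and 18.4% rose. At 13 and over 42.3% fell and 17.1% rose. The shares of both groups that fell lay near these, and the shares that rose lay below them.

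Splicing and proteasome genes are mostly high genes, and among protein-coding genes at 11 to 13 34.8% fell and at 13 and over 42.3% did. Of 47 SR and hnRNP splicing factors 25 (53.2%) fell and 3 rose (14 and 9 after quantile normalization), with RBM39 at -0.22 and SRSF6 at -0.18. Of 48 genes with a proteasome symbol 22 (45.8%) fell and 2 rose (13 and 5 after quantile normalization; 14 fell without DMSO replicate 2), with PSMA6 at -0.19 and PSMD3 at -0.18. The next 3 groups had no more lower calls than other genes of their level. Of 49 core spliceosome genes 16 (32.7%) fell and 3 rose, and quantile normalization turned their median from -0.01 to 0.01 (12 lower, 9 higher), with LSM7 at -0.26 and SF3B3 at 0.09. Mitochondrial ribosomal proteins gave 3 higher and 23 lower (29.5%) of 78 (5 and 17 after quantile normalization), and 20 were higher than with decitabine. The nuclear genes of the respiratory chain gave 3 higher and 15 lower (18.5%) of 81 (27 lower when centred), and quantile normalization turned their median from -0.01 to 0.02, with 7 higher and 10 lower, and 9 fell without NTX-301 replicate 2.

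**Figure D5:**
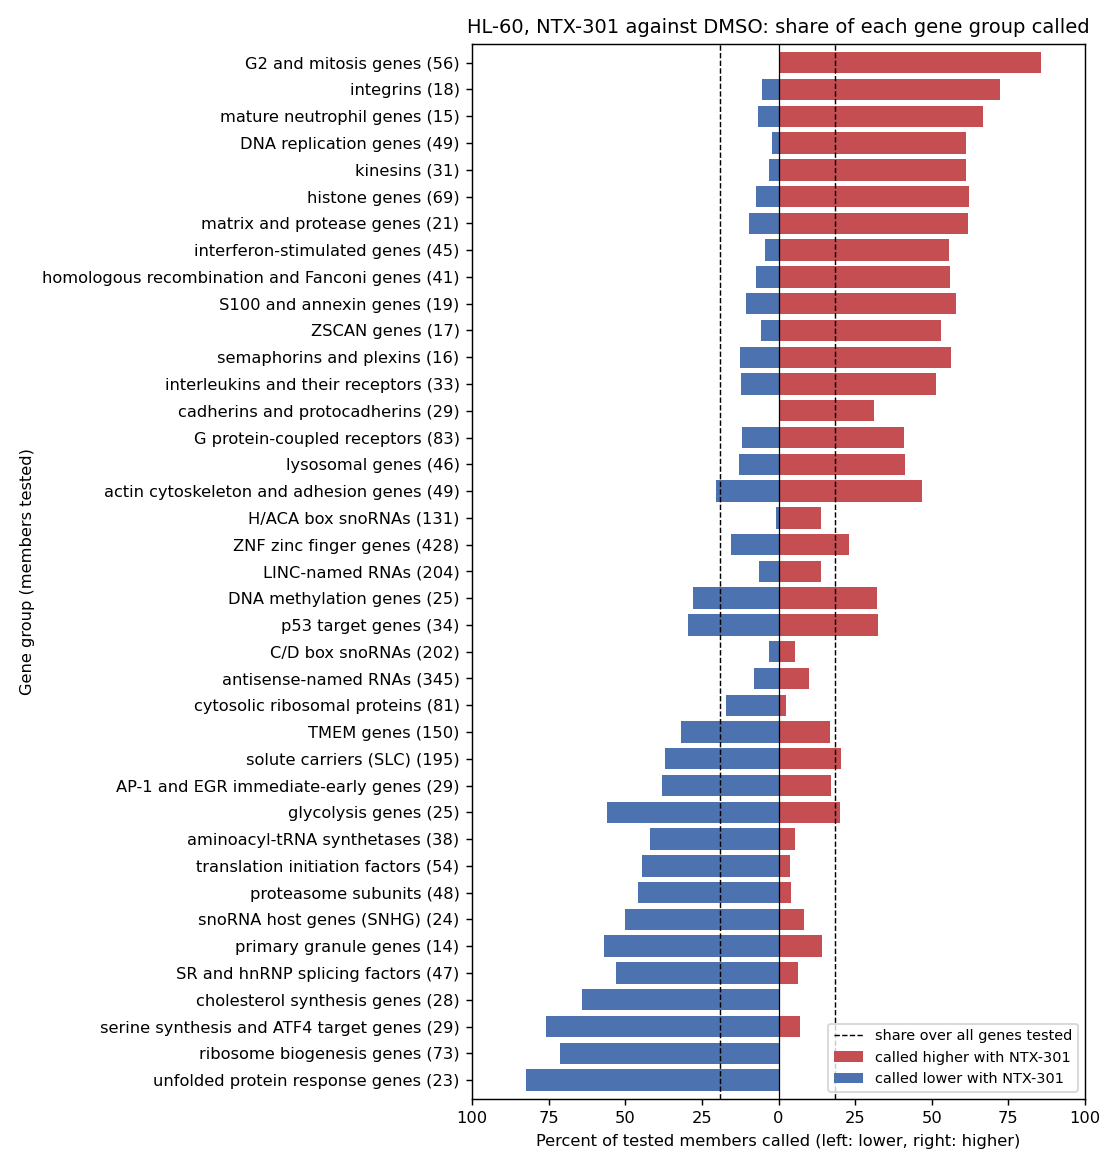
Percent of tested members called lower (left, blue) or higher (right, red) with NTX-301 for 39 gene groups, with the number tested in brackets; dashed lines mark the shares over all genes, 19.2% lower and 18.3% higher. Mitosis genes stand at the top and unfolded protein response genes at the bottom; in at least 1 of the 16 alternative settings the side with more calls changed for the snoRNA, LINC, antisense, ZNF, p53, DNA methylation and ribosomal protein groups.

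Primary granule and mature neutrophil genes, lists of unlike level, went different ways. Of 14 primary granule genes, made in promyelocytes, 8 (57.1%) fell and 2 rose, with a median of -0.14. Quantile normalization gave 6 and 2, with a median of -0.04. Their median level in DMSO was 12.7, and 34.8% of protein-coding genes at 11 to 13 fell. MPO, myeloperoxidase, read 18.67, 18.70 and 18.75 in DMSO and 18.34, 18.36 and 18.37 with NTX-301, and fell by 0.35 (adjusted p = 1.01e-08; quantile normalization gave 0, since MPO held the same rank in every sample). ELANE, neutrophil elastase, fell by 0.48 and the granule proteoglycan SRGN by 0.40, while PRSS57 rose by 0.37 and RNASE2 by 0.27. Against decitabine 10 of the 14 were lower and 0 higher.

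Of 15 mature neutrophil genes, 10 (66.7%) rose and 1 fell, with a median of 0.16 (8 and 1 after quantile normalization). Their median level in DMSO was 8.38, and 32.7% of protein-coding genes at 7 to 9 rose. CYBB, the catalytic subunit of the phagocyte oxidase, read 8.19, 8.17 and 8.18 in DMSO and 8.63, 8.71 and 8.64 with NTX-301 (rise 0.48), and its partner NCF4 rose by 0.32. CYBA, the other membrane subunit, fell by 0.33. Of the secondary and tertiary granule genes only CHI3L1 and ORM1 were listed, and CHI3L1 (1.0) passed the test. In bulk RNA, fewer cells of a stage and less RNA per cell cannot be told apart.

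Most of the eosinophil list rose with EPX, but its most abundant member fell. Of 7 eosinophil granule genes tested 5 rose and 1 fell (2 and 1 after quantile normalization; 3 rose without NTX-301 replicate 1), and 6 of 7 were lower than with decitabine. PRG2, the major basic protein, fell by 0.53, and RNASE2, the eosinophil-derived neurotoxin, rose by 0.27. Of 6 mast cell and basophil genes 3 rose and 1 fell: GATA2, SLC45A3 (0.97) and the mast cell protease CPA3 (0.86) rose, and the stem cell factor receptor KIT fell by 0.15.

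Markers of cell types that HL-60 should not hold were mostly not listed. For erythroid cells 16 of 21 were not listed, for megakaryocytes 16 of 18, for B cells 12 of 17, for T and NK cells 19 of 22, and for stromal and epithelial cells 16 of 20, with the globins HBA1 and HBB, PF4, CD3E, COL1A1 and EPCAM among them. Of the listed members, 3 of 5 erythroid, 2 of 2 megakaryocyte, 3 of 5 B cell, 2 of 3 T and NK cell and 4 of 4 stromal genes rose, and 1 B cell gene, BANK1 (-0.13), fell. The median DMSO levels of these lists were low, from 4.39 (T and NK cells) to 7.94 (B cells), where rises outnumbered falls in general. Among protein-coding genes 19.8% rose at 3 to 5, 33.3% at 5 to 7 and 32.7% at 7 to 9. Quantile normalization gave 2 higher and 1 lower in the erythroid list. The log2 of the summed linear values of the stromal list was 11.1 in every DMSO sample and 11.9 in every NTX-301 sample, and its highest member was vimentin, VIM (0.80). For the B cell list the sum lay between 13.5 and 13.6 in DMSO and at 13.9 with NTX-301, and its highest member was the surrogate light chain gene IGLL1 (0.42). The megakaryocyte sum, of ITGA2B (0.90) and the thrombin receptor F2RL3 (1.15), lay between 8.41 and 8.46 in DMSO and between 9.38 and 9.47 with NTX-301. The erythroid sum lay between 16.2 and 16.3 in both groups, and that of T and NK cells between 7.87 and 7.98 and between 8.18 and 8.28. Of the 20 monocyte and macrophage markers 9 were listed, CD14 not among them, and 3 rose and 2 fell (3 and 1 after quantile normalization), with CSF1R at 0.42 and CD4 at -0.23. Whether any of these markers has a part in the other results was not tested.

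Of 29 AP-1 and EGR immediate-early genes, 11 fell and 5 rose, with a median of -0.05. FOS read 11.10, 10.98 and 11.05 in DMSO and 10.09, 10.10 and 10.11 with NTX-301. BTG2, an antiproliferative gene of the same early response, moved the other way, from 7.53, 7.57 and 7.63 to 8.44, 8.50 and 8.43 (rise 0.88). Of 32 NF-kB inflammatory genes 14 (43.75%) rose and 6 (18.75%) fell. Protein-coding genes at 7 to 9, the class of the list's median level, gave 32.7% and 9.31%. CXCL8 and NFKBIA were among those that fell, while TNFAIP2 rose by 0.59 and the inhibitor TNFAIP3 by 0.46.

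Of 45 interferon-stimulated genes, 25 rose and 2 fell, with a median of 0.10, and 23 were higher than with decitabine. BST2, the tetherin that holds budding virus, read 7.96, 8.04 and 8.04 in DMSO and 8.77, 8.83 and 8.75 with NTX-301 (rise 0.77). LGALS3BP rose by 0.65, and TRIM25, a ubiquitin ligase of RNA sensing, fell by 0.33. Classes of genes at the median level of this list, 7 to 9, gave 32.7% higher and 9.31% lower among protein-coding genes. Of 22 genes of MHC class I and peptide loading 5 rose and 6 fell (7 and 5 after quantile normalization), with the transporter TAP1 at 0.28 and the chaperone PDIA3 at -0.17.

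Cytokine and surface receptor genes are mostly low, and among protein-coding genes at 7 to 9 32.7% rose and 9.31% fell. Of 33 interleukins and their receptors 17 (51.5%) rose and 4 fell. IL9R read 10.31, 10.37 and 10.37 in DMSO and 11.54, 11.58 and 11.55 with NTX-301, and IL17RE rose by 0.94. The interleukin-6 receptor pair fell, with IL6R at -0.53 and its signalling partner IL6ST at -0.36. Of 23 STAT5, PIM and SOCS genes 9 rose and 4 fell (8 and 7 when centred, with a median that turned from 0.03 to 0.00): STAT5A rose by 0.67 and CSF2RB, the common beta chain, by 0.58, while the survival gene MCL1 fell by 0.39. Of 83 G protein-coupled receptors 34 (41.0%) rose and 10 fell, with F2RL3 at 1.15, GPR85 at 0.59 and GPR160 at -0.42. Of 19 SIGLEC, LILR and CLEC receptors 7 (36.8%) rose and 3 fell, close to the share at their level, with CLEC5A at -0.35.

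In several adhesion, cytoskeleton and matrix groups more members rose than fell. Among protein-coding genes at 7 to 9, the class of the S100 and semaphorin medians, 32.7% rose and 9.31% fell. At 9 to 11, the class of the integrin and matrix medians, 22.9% rose. At 13 and over, that of the actin list, 17.1% did. Of 18 integrins 13 (72.2%) rose and 1 fell (8 and 1 when centred), the latter ITGA5, the fibronectin receptor chain (-0.23). Of 21 matrix and protease genes 13 (61.9%) rose and 2 fell: TIMP1, a metalloprotease inhibitor, rose by 0.77 and the urokinase gene PLAU fell by 0.26. Of 49 actin cytoskeleton and adhesion genes 23 (46.9%) rose and 10 fell, with tropomyosin TPM4 at 0.92 and the myosin MYH9 at -0.30. Of 19 S100 and annexin genes 11 (57.9%) rose and 2 fell, with S100A6 at 0.76 and ANXA1 at 0.68. Semaphorins and plexins gave 9 higher (56.25%) and 2 lower of 16, with SEMA7A at 0.68 and SEMA4A at -0.49.

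Of 29 cadherins and protocadherins 9 rose and 0 fell (10 and 0 at an unadjusted p under 0.05; centring gave 7 and 3), which is 31.0% higher where 33.3% of protein-coding genes at 5 to 7 rose, with PCDHGC3 at 0.67 and CDH24 at 0.59. Protocadherin gamma genes share exons, so PCDHGC3 is uncertain. Of 46 lysosomal genes 19 rose and 6 fell (16 and 12 after centring; 3 fell without NTX-301 replicate 2), with the acid nuclease DNASE2 at 0.68 and GALNS at -0.38. Solute carriers moved both ways, 40 higher and 72 lower of 195, with the iron exporter SLC40A1 at 0.82, named after its value was seen, and the nucleobase transporter SLC43A3 at -0.36.

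Other groups showed calls both ways or few calls. Of 35 progenitor and leukaemia transcription factors 10 rose and 14 fell (13 and 14 after quantile normalization), with LMO2, a T cell and progenitor oncogene, at -0.33 and MYC at -0.25. Of 34 p53 target genes 11 rose and 10 fell, in a line without functional p53, with CD82 at 1.13 and the BH3 gene PMAIP1 at -0.43. The 9 HOX genes tested gave 0 calls in limma, with 1 higher and 0 lower at an unadjusted p under 0.05. Of 428 ZNF genes 99 rose and 67 fell, with a median of 0.02 that turned to -0.01 when centred (72 and 102). Of 17 ZSCAN genes 9 rose and 1 fell (5 and 3 after centring), and 4 rose without DMSO replicate 2, 5 without NTX-301 replicate 3 and 6 without NTX-301 replicate 1. Of 12 cancer-testis genes tested 7 rose and 2 fell (4 and 2 after quantile normalization), all by less than 0.25, with PRAME at 0.18, and 6 of the 12 were lower than with decitabine.

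Of 2101 long noncoding RNAs 239 rose and 206 fell, and of 11799 protein-coding genes 2641 and 2937. The order of the shares called changed with level: at 7 to 9 30.3% of long noncoding RNAs and 42.0% of protein-coding genes were called, at 9 to 11 47.3% and 45.5%, and at 11 to 13 71.1% and 53.2%. Their median level in DMSO was 5.67 against 10.9, a range in which the scale compresses change. The split of the long noncoding RNAs turned to 134 and 455 when centred and 153 and 357 after quantile normalization. NORAD, which binds PUMILIO proteins, read 14.67, 14.65 and 14.61 in DMSO and 14.31, 14.33 and 14.31 with NTX-301 and fell by 0.33. LINC-PINT fell by 0.35 and MIR17HG, host of the miR-17 to miR-92 cluster, by 0.46, and the imprinted KCNQ1OT1 rose by 0.23.

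Antisense-named RNAs gave 34 higher and 28 lower of 345 (18 and 69 when centred, 24 and 51 after quantile normalization). GATA2-AS1 read 9.28, 9.31 and 9.19 in DMSO and 9.84, 9.80 and 9.86 with NTX-301 (rise 0.57, adjusted p = 7.07e-08), beside the 1.33 of GATA2. Whether counting used strand is not given in the sources used here, so reads of such partners cannot be told apart. WT1-AS rose by 0.39 and OIP5-AS1 fell by 0.21. LINC-named RNAs gave 28 and 13 of 204 (18 and 41 when centred), and uncharacterised LOC genes 180 and 150 of 1639 (96 and 375 when centred).

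Small nuclear and nucleolar RNAs were called, in either direction, less often than all genes (37.4%), of which 18.3% rose and 19.2% fell. The shares that rose were 5.45% of C/D box snoRNAs, 13.7% of H/ACA box snoRNAs and 26.9% of small Cajal body RNAs, the last above that of all genes. Of 202 C/D box snoRNAs 11 rose and 6 fell (7 and 46 when centred; 2 or 3 fell without DMSO replicate 1 or 2 or NTX-301 replicate 1 or 3), with SNORD17 at 0.44. Of 131 H/ACA box snoRNAs 18 rose and 1 fell (15 and 26 when centred, 6 and 15 after quantile normalization), and without NTX-301 replicate 1 only 7 rose, without DMSO replicate 1 9. The first NTX-301 sample was the high one in SNORA63, with 9.54, 9.54 and 9.50 in DMSO and 10.08, 9.85 and 9.70 with NTX-301 (rise 0.35). SNORA73B showed the same, at 13.25, 13.04 and 12.98 (rise 0.28). Of 26 small Cajal body RNAs, guides of spliceosomal RNA modification, 7 rose and 0 fell (limma; 9 and 0 at an unadjusted p under 0.05; 7 and 4 when centred), with SCARNA6 at 0.34.

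MicroRNA genes were close to the floor, with a median log2 level of 2.60, and total RNA libraries measure precursors or their hosts rather than mature microRNA. Of 430 tested, 6 rose and 14 fell (2 and 276 when centred), and 6 fell without NTX-301 replicate 1, 7 without NTX-301 replicate 2 and 8 without DMSO replicate 3, while 2 rose without NTX-301 replicate 1 or DMSO replicate 1 and 3 without NTX-301 replicate 3. The neighbours MIR181A1 and MIR181B1 were both called lower, as were MIRLET7D and MIRLET7F2. MIR181B1 read 4.96, 4.94 and 4.93 in DMSO and 4.81, 4.82 and 4.81 with NTX-301 (-0.13, adjusted p = 9.42e-05). MIR181A1 (-0.02), MIRLET7D (-0.05) and MIRLET7F2 (-0.01) differed by far less. The mature 5p arms (RefSeq, GRCh38.p14) are printed with bases 2 to 8, the seed, in capitals, because each pair shares its seed.
miR-181a-5p: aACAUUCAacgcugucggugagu
miR-181b-5p: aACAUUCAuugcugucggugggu
let-7d-5p: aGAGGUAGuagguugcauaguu
let-7f-5p: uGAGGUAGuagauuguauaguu

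A few sets picked after their values were seen ended the list. Of 4 T cell receptor constant regions tested, at DMSO levels of 6.45 to 8.73, 2 rose and 1 fell (-0.11). TRAC read 6.43, 6.47 and 6.44 in DMSO and 7.02, 7.14 and 7.04 with NTX-301 (rise 0.62, adjusted p = 4.21e-08), and TRDC rose by 0.56. Of 21 T cell receptor alpha J segments, 16 rose and 0 fell, by at most 0.04 at DMSO levels of 1.41 to 2.80. Of the 13 protein genes of the mitochondrial chromosome 2 rose and 2 fell. The readthrough RNA BLOC1S5-TXNDC5 differed by -2.09, but its SD over NTX-301 samples was 1.40, while its parts TXNDC5 (0.30) and BLOC1S5 (0.18) rose. Reads of such overlapping genes may be split between them.

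In the other line of the series, MOLM-13, 21 of the 24 leading genes were tested as well, with the same drug at a stated 15 nM and after separate normalization. The response of all 21 differed between lines, and that of 40.0% of 15474 shared genes did. The 21 were chosen for their HL-60 values, which are part of the difference, so their count is no evidence of a difference between lines. EPX rose by 2.03 in HL-60 and differed by 0.05 in MOLM-13, which was not called. Dose and line cannot be told apart here.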

How the data were processed

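The authors deposited 1 normalized log2 expression value per gene and sample. Per the submitters' processing notes the tools were FastQC, Trimmomatic 0.38, HISAT2 and StringTie with build hg19. The normalization, annotation version and use of strand are not given in the sources used here. Read depth is unknown, so only the replicate spread gives a measure of precision. The 9 HL-60 samples entered 1 fit with a mean per group (limma 3.58.1 in R 4.3.3, lmFit and eBayes with a trend, 6 residual degrees of freedom, two-sided), with Benjamini-Hochberg adjustment over 17046 genes; 64 that did not reach 1 on the linear scale in 3 samples were removed. The steps were tested on simulated data. Line differences came from 1 fit of all 18 samples.

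Genes were grouped into 45 lists and 63 symbol families, which hold 6685 of the genes tested (39.2%); protein families hold protein-coding genes only. Members and lists were chosen with earlier results of these data known. Named genes were the 12 highest and 12 lowest fold changes (called, no overlap, higher group averaging 5 or more on the linear scale, no readthrough or ribosomal RNA gene), the 2 members per group and direction with the lowest adjusted p-value, of which a selection is given, and a set list (DNMT1, DNMT3A, DNMT3B, UHRF1, DCK, SAMHD1, TET2, MYC, MPO, ELANE, MDM2, CXCL8, EPX, RHEX, FOSB). Gene IDs matched the RefSeq table of GRCh38.p14 in 97.9% of genes. Gene names and biotypes are those deposited with the values. RefSeq gave chromosomes, promoters and microRNA sequences, and was not used with file coordinates. Replicate numbers did not pair the samples. Alternatives were centring, quantile normalization, other filters and fits, a replicate block, stricter thresholds and leaving out each replicate. Some items are not reported here.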

Additional observations from a re-analysis of the deposited data

Results flagged for a closer look

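The response to NTX-301 differed between lines, by limma's test of the difference (MOLM-13 fold change minus HL-60 fold change) in 1 fit of all 18 samples, for 30 of the genes that were either among the 12 highest and 12 lowest or on the set list. Other genes named in the gene groups also differed and are not given here. The leading genes were chosen for their HL-60 values, which are part of the difference. The lines were normalized separately and the stated concentrations differ (30 nM and 15 nM), so line, dose and scale cannot be told apart.

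Among these 30, genes that rose in HL-60 had the most negative differences: EPX -1.98, RHEX -1.85, IKZF2 -1.37, AHNAK -1.22, GATA2 -1.14, FST -1.12, LGALS1 -1.10, SIGLEC6 -1.05, IL9R -0.98 and DNMT3B -0.70. Smaller negative differences were those of UHRF1 (-0.43), DNMT1 (-0.32) and DCK (-0.18).

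UHRF1 aside, those of the 30 that fell in HL-60 had positive differences. In the early-response group these were FOSB 1.38, FOS 1.25, NR4A2 0.98 and EGR1 0.44. Among inflammatory and granule genes they were FCAR 1.18, CXCL8 0.79, PRTN3 0.69, ELANE 0.57, NFKBIA 0.50 and MPO 0.26. The others were NRG4 0.77, LYST 0.59, B3GNT7 0.50, HERPUD1 0.29 and MYC 0.10. MDM2 (0.61) and TET2 (0.14) were not called in HL-60 and also differed between lines.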

How the results depend on the processing

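A minimum change of 0.25 moved the count of called genes most, to 1250 (765 higher, 485 lower), and centring moved the lower calls to 5400. A CpG ratio limit of 0.75 in place of 0.6 gave 26.0% higher and 19.6% lower among CpG-poor genes. Of 64 gene groups, 48 kept the direction with more calls and 47 the sign of the median in all 16 settings other than the stricter thresholds. Of 560 values of 35 named genes, 543 kept their direction and side of the threshold, 13 lost the call (DNMT1, UHRF1 and MPO), 4 gained it (SAMHD1) and 0 reversed. The number pairs of DMSO and NTX-301 samples correlated at 0.063, -0.018 and 0.085; with a replicate block 6353 genes were called, 6192 of them among the 6380. Read depth is unknown, and genes with low values are compressed, so a small change there cannot be told from none. Counts of 3 or fewer members called in a group often changed when a replicate was left out.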
